A study of Bos taurus with 9 samples.

Results

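Bovine chromosomes 18, 19 and 25 are short autosomes that carry many genes. The peaks described here are all peaks on these 3 chromosomes in 8 lists from chromatin immunoprecipitation with sequencing (ChIP-seq). Each peak was taken by its chromosome name alone, but the chromosomes themselves were chosen with earlier results of these data known. The peaks taken number 11796 of the 86291 peaks in the lists. They make up 14.2% of the peaks on the 29 autosomes, on 6.89% of the autosomal span. The span of a chromosome was counted from its first base to the end of its last peak in any list. It came to 66.0 Mb for chromosome 18, 64.0 Mb for chromosome 19 and 42.9 Mb for chromosome 25. The 26 other autosomes, from 43.9 to 158 Mb long, served for comparison.

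The tissue was rumen of Holstein cattle, taken before butyrate (control) and after 24 h of it (butyrate). The rumen is the fermenting forestomach, lined by a stratified keratinised epithelium, and butyrate, a short-chain fatty acid made there, also inhibits histone deacetylases. Antibodies to H3K9ac, H3K27ac, RNA pol II and H3K9me3 gave 1 library per antibody and condition, and an input library served as background for peak calling. No list had a replicate, so no difference below could be set against a spread between replicates and none was tested. The labels do not say how many animals were sampled or whether tissue was pooled. The H3K9ac and H3K27ac libraries ran on lane 1 (control) and lane 3 (after treatment). The H3K9me3 libraries ran on lane 3 and, after treatment, lane 4, so lane and condition cannot be told apart for these 3 antibodies. Both RNA pol II libraries ran on lane 3. The tissue is a mixture of cell types, so a change in the share of a cell type and a change of the mark within its cells cannot be told apart either.

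As background, acetylation of histone H3 at lysine 9 and lysine 27 is found at active promoters, and lysine 27 acetylation also at active enhancers. RNA pol II is the enzyme that transcribes protein-coding genes. Trimethylation of lysine 9 is a repressive mark of heterochromatin, and in mammals it is also known from clusters of zinc finger genes. Peaks of the active marks therefore tend to follow genes, and a chromosome dense in genes offers more places for them.

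The name gene-dense was checked against a RefSeq gene table of the assembly ARS-UCD2.0, used only for the chromosome of each gene. Of 20280 protein-coding genes on the autosomes, 3129 (15.4%) were on chromosomes 18, 19 and 25. Divided by the spans above, chromosome 18 had 18.7 genes per Mb, chromosome 19 had 18.6 and chromosome 25 had 16.4, the 3 highest values of the 29 autosomes. Chromosome 23 came next with 13.4, and the 26 other autosomes together had 7.34. The 3 chromosomes carry different gene families. Chromosome 19 held 29 of the 57 genes named KRT, the keratins that form the filaments of epithelial cells, and all 10 HOXB genes, which pattern the body axis. Chromosome 18 held 92 of the 291 genes named ZNF, a family of zinc finger proteins, chromosome 25 held 24 and chromosome 19 held 10.

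Acetylation peaks were more than 2 times as dense on these chromosomes as on the other autosomes. H3K27ac reached 31.3 peaks per Mb in control, against 13.5 elsewhere, a ratio of 2.32 (95% interval 2.25 to 2.38). After butyrate it reached 26.6 against 12.1, a ratio of 2.20 (2.14 to 2.27). Chromosome 19 had the highest H3K27ac density of all autosomes, with 36.2 control and 31.1 butyrate peaks per Mb. Chromosomes 18 (28.5 and 23.9) and 25 (28.3 and 23.9) ranked 2 and 3 in both conditions. The densest of the other autosomes was chromosome 23, with 24.7 and 22.3. The intervals cover counting error only and take peaks as independent, which neighbouring peaks are not.

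The H3K9ac lists were smaller, with 587 control and 611 butyrate peaks on the 3 chromosomes. Their density ratio to the other autosomes was 2.27 in control (2.08 to 2.48) and 2.26 after butyrate (2.08 to 2.47). Chromosome 19 was first again, with 4.12 control and 4.29 butyrate peaks per Mb, and chromosome 18 was next with 3.29 and 3.26. Chromosome 25 was lower. It had 2.47 in control, which ranked 5, and 2.82 after butyrate, which ranked 3.

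RNA pol II peaks were few, 78 in control and 113 after butyrate. Their density ratio was 1.77 (1.40 to 2.24) in control and 1.35 (1.11 to 1.64) after butyrate. In control, chromosomes 19 and 18 ranked 1 and 2 with 38 and 32 peaks, whereas chromosome 25 held 8 peaks and ranked 21 of 29. After butyrate chromosome 18 held 47 peaks and ranked 4, chromosome 19 held 40 and ranked 7, and chromosome 25 held 26 and ranked 10. Chromosomes 19 and 18, the densest in RNA pol II in control, were thus not the densest after butyrate.

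H3K9me3 also had a ratio above 1, 2.00 (1.72 to 2.32) in control and 1.83 (1.58 to 2.12) after butyrate, with 112 of 198 control and 120 of 204 butyrate peaks on chromosome 18. That chromosome had the highest H3K9me3 density of the 29 in both conditions, with 1.70 control and 1.82 butyrate peaks per Mb. The densest of the other autosomes was chromosome 23 in control, with 1.01. After butyrate it was chromosome 27, with 1.80, close to chromosome 18. Chromosome 25 ranked 4 with 42 control peaks and 5 with 44 butyrate peaks. Chromosome 19, the richest in acetylation, held 44 and 40 H3K9me3 peaks and ranked 11 and 16.

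**Figure D1:**
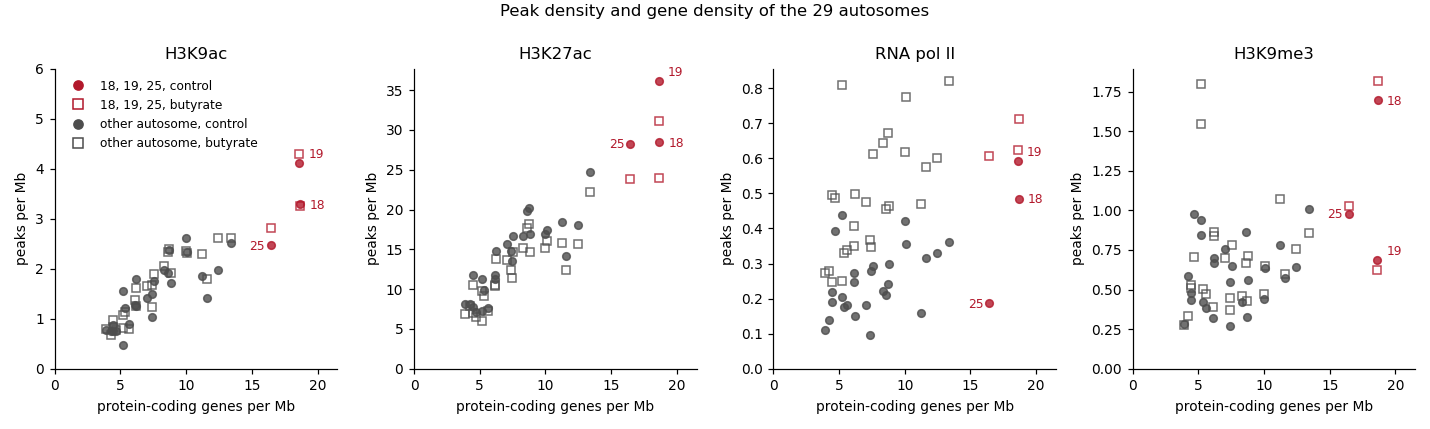
Peaks per Mb (vertical axes, 1 panel per antibody) against protein-coding genes per Mb (horizontal axes) for the 29 autosomes, with filled circles for control and open squares for butyrate, and chromosomes 18, 19 and 25 in red with their control points numbered. In the H3K27ac panel the red points continue the upward trend of the grey ones. In the H3K9ac panel the control point of chromosome 25 (2.47 peaks per Mb) lies below those of chromosomes 5 (2.62) and 23 (2.52). In the RNA pol II panel the control point of chromosome 25 (8 peaks) lies low. In the H3K9me3 panel chromosome 18 stands above chromosome 19 at the same gene density.

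Set against gene number in place of length, the 3 chromosomes together showed no excess. On the 3 chromosomes there were 173 control and 147 butyrate H3K27ac peaks per 100 protein-coding genes, against 184 and 164 on the other autosomes. The ratios per gene were 0.94 (0.91 to 0.97) and 0.89 (0.87 to 0.92). H3K9ac gave 0.92 in both conditions, with intervals of 0.85 to 1.01 and 0.84 to 1.00. H3K9me3 gave 0.81 (0.70 to 0.94) in control and 0.74 (0.64 to 0.86) after butyrate. RNA pol II was the lowest, with 2.49 peaks per 100 genes against 3.47 in control (ratio 0.72, 0.57 to 0.91) and 3.61 against 6.58 after butyrate (ratio 0.55, 0.45 to 0.67). Pooled over the 3 chromosomes, each antibody thus had fewer peaks per gene than elsewhere, although for H3K9ac both intervals included 1. The chromosomes differed in this. Chromosome 19 alone had 1.95 control and 1.67 butyrate H3K27ac peaks per gene, against 1.84 and 1.64 on the other autosomes. It had 0.221 and 0.231 H3K9ac peaks per gene, against 0.203 and 0.212. Chromosomes 18 (0.176 and 0.175) and 25 (0.150 and 0.172) had fewer H3K9ac peaks per gene than the other autosomes. Chromosome 18 alone had 0.0909 and 0.0974 H3K9me3 peaks per gene, against 0.0780 and 0.0878. Low acetylation values per gene were not particular to the 3 chromosomes. Chromosomes 23, 29, 15 and 7, which ranked 4 to 7 in genes per Mb, had 1.85, 1.45, 1.22 and 1.64 control H3K27ac peaks per gene. Their control H3K9ac peaks per gene were 0.188, 0.159, 0.121 and 0.164. RNA pol II after butyrate differed, with 0.0381, 0.0336 and 0.0369 peaks per gene on chromosomes 18, 19 and 25. Every other autosome had more, the lowest being chromosome 7 with 0.0419.

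Over the 29 autosomes, peaks per Mb followed genes per Mb with a Pearson r of 0.93 (control) and 0.92 (butyrate) for H3K27ac and of 0.88 and 0.93 for H3K9ac. Leaving out chromosomes 18, 19 and 25, the 26 others gave 0.85 and 0.83 for H3K27ac and 0.79 and 0.90 for H3K9ac. RNA pol II gave 0.57 and 0.60 over all and 0.39 and 0.62 over the 26. H3K9me3 gave 0.53 and 0.32 over all, and 0.22 and 0.05 once the 3 chromosomes were left out. These are descriptions over chromosomes that share a library, and gene and peak density here share the same span as divisor.

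Neighbouring acetylation peaks lay closer together on these chromosomes. A higher density shortens gaps by itself, so the gaps of each antibody are not a separate result from the densities above. The median gap between consecutive H3K27ac peaks was 3.57 kb in control, with a 95% interval of 3.22 to 3.97 kb, against 5.74 kb on the other autosomes. After butyrate it was 3.84 kb (3.40 to 4.35 kb) against 5.53 kb. The median H3K9ac gap was 87.1 kb against 138 kb in control and 78.2 kb against 125 kb after butyrate. Gaps of at most 10 kb made up 64.3% of H3K27ac gaps in control against 56.7% elsewhere, and 62.3% against 56.6% after butyrate. Gaps over 100 kb made up 5.62% of H3K27ac gaps in control against 12.6% elsewhere, and 7.25% against 14.1% after butyrate. Gaps of at most 1 kb made up 34.9% in both conditions, against 31.3% and 32.9% elsewhere.

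RNA pol II had a shorter median gap than elsewhere in control, and a median close to that of the other autosomes after butyrate. The difference between the conditions was not tested. In control the median gap was 850 kb, against 1656 kb on the other autosomes. After butyrate it was 741 kb against 758 kb, with an interval of 461 to 1173 kb that took in the value of the other autosomes. The longer gaps were still shorter here after butyrate, with an upper quartile of 2073 kb against 2564 kb. The shortest gaps were longer here, with a 10th percentile of 47.9 kb against 20.6 kb. Gaps of at most 10 kb made up 3.64% against 6.62%. Chromosome 25 had 7 gaps in control, with a median of 6533 kb, and 25 after butyrate, with a median of 913 kb.

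H3K9me3 peaks had a median gap of 175 kb against 650 kb in control and of 83.5 kb against 401 kb after butyrate. Chromosome 18 had the shortest medians of the 3, with 105 kb in control and 54.0 kb after butyrate. On chromosome 19 the medians were 661 kb and 805 kb, and on chromosome 25 they were 605 kb and 142 kb. The median over chromosomes of the 26 others was 680 kb in control and 651 kb after butyrate, so chromosome 19 lay near it. Against only the 7 other autosomes that are no longer than chromosome 18, the butyrate median of the 3 chromosomes was 0.36 times that of the others, in place of 0.21.

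**Figure D2:**
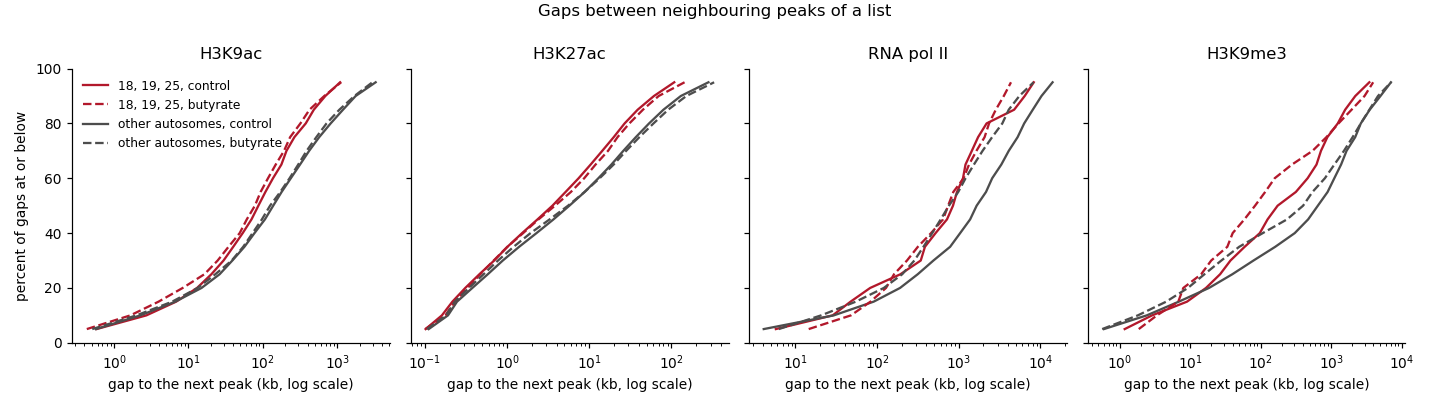
Cumulative percent of gaps (vertical axes) at or below a given gap to the next peak in kb (horizontal axes, log scale), drawn at percentiles 5 apart, for chromosomes 18, 19 and 25 (red) and the other autosomes (grey), in control (solid) and after butyrate (dashed). The red lines lie to the left of the grey ones above the lower percentiles in the acetylation panels, the butyrate lines of RNA pol II meet at their medians (741 and 758 kb), and the red H3K9me3 lines show the shorter median gaps of 175 and 83.5 kb.

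In windows of 1 Mb, 11.5% of the 174 windows on these chromosomes held no control H3K27ac peak, against 22.2% of windows on the other autosomes, and after butyrate the shares were 12.1% and 23.0%. For H3K9ac, 28.2% of windows were empty in control against 50.6%, and 31.0% against 50.9% after butyrate. RNA pol II left 70.1% of windows empty in control against 81.4%, and 58.0% against 69.9% after butyrate. H3K9me3 left 56.3% empty against 68.5% in control and 60.3% against 68.5% after butyrate. The densest 10% of windows held 29.3% of the control H3K27ac peaks here and 42.0% elsewhere. This share was lower here in every list but that of butyrate H3K9me3, where it was 65.7% against 64.1%. Fewer windows were thus empty here for every antibody, the repressive H3K9me3 included. Peaks per Mb were also higher here for every antibody, and the part of that in these shares was not tested.

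The spread was still uneven along each chromosome, which was cut into 10 bins of equal length numbered from its start. On chromosome 18, bins 8 and 9 held 414 and 396 of the 1879 control H3K27ac peaks, and 378 and 331 of the 1580 butyrate peaks. Bin 5 held 6 and 5. RNA pol II followed, with 13 control and 14 butyrate peaks in bin 8 and 8 and 8 in bin 9. On chromosome 19, bins 7 and 9 were the richest in control H3K27ac (413 and 439 of 2319), and bin 1 held 13. On chromosome 25 the peaks lay towards both ends, with 288 of 1213 control H3K27ac peaks in bin 1 and 235 in bin 9, and 11 in bin 2.

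The H3K9me3 peaks of chromosome 18 were gathered in its last 3 bins. In control these bins held 32, 24 and 35 of 112 peaks, and after butyrate 29, 15 and 54 of 120. Bin 10 thus held 31.3% of the control peaks (23.4% to 40.3%) and 45.0% of the butyrate peaks (36.4% to 53.9%). Acetylation was lower there than in the 2 bins before it, with 16 control and 19 butyrate H3K9ac peaks against 51 and 52 in bin 9. Chromosome 19 had no such end, with at most 12 H3K9me3 peaks in a bin in either list. The positions of the zinc finger genes on chromosome 18 were not set against these peaks, since no gene table on the assembly of the lists was used.

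**Figure D3:**
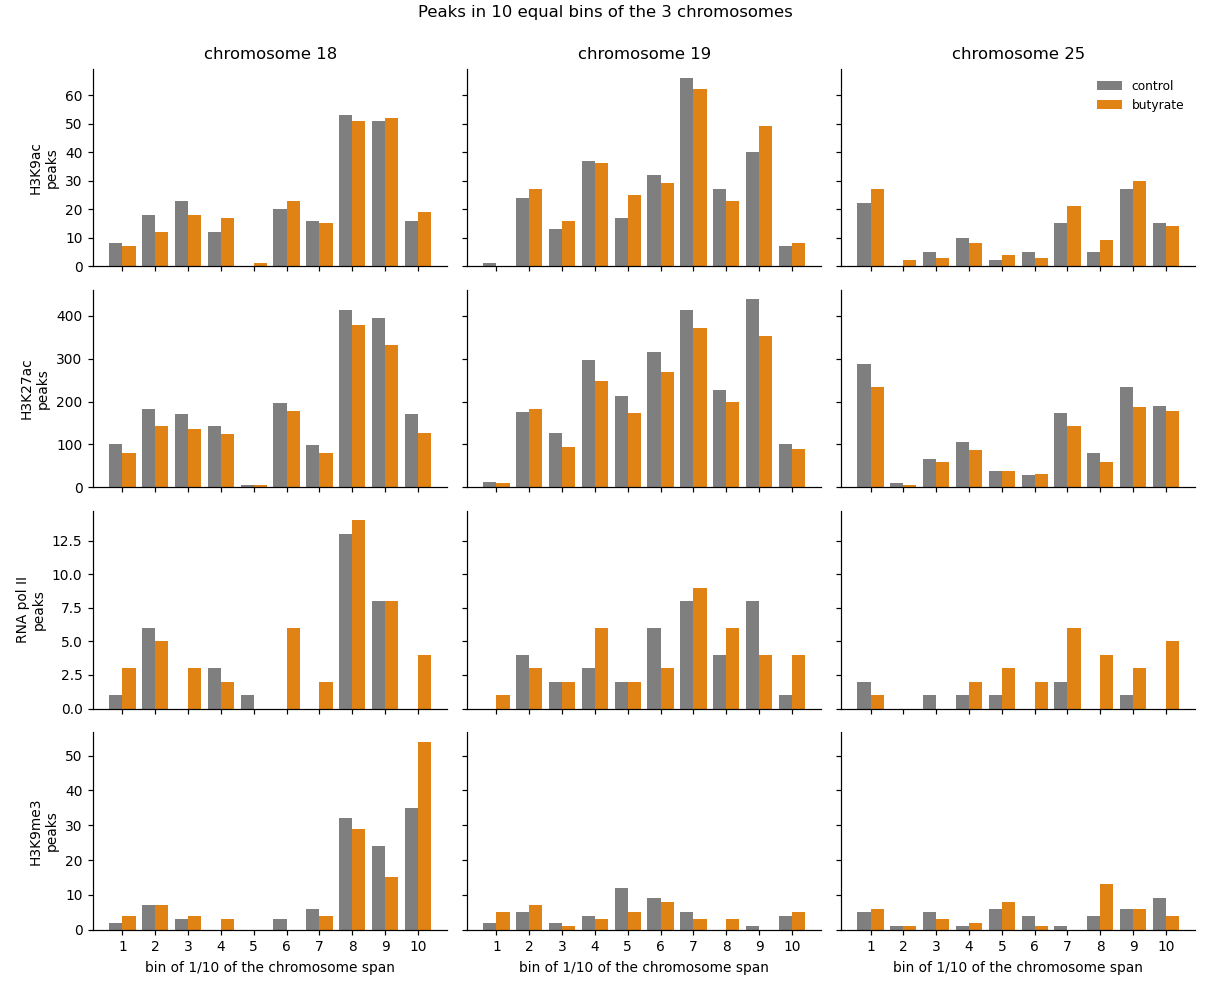
Number of peaks (vertical axes, shared within a row) in each of 10 equal bins of the span (horizontal axes) of chromosomes 18, 19 and 25 (columns), for the 4 antibodies (rows), in control (grey) and after butyrate (orange). The nearly empty bin 5 of chromosome 18 (6 and 5 H3K27ac peaks) and the H3K9me3 peaks in its last 3 bins, up to 54 in bin 10, stand out.

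The densest windows, given on the assembly UMD3.1 named in the labels, show how the marks combined. Chromosome 19 had 1 window, chr19:43000001-44000000, that was the densest of the chromosome for both H3K9ac and RNA pol II. It held 23 control and 20 butyrate H3K9ac peaks, 84 and 81 H3K27ac peaks, 4 and 7 RNA pol II peaks, and 0 and 1 H3K9me3 peaks. For H3K27ac the densest window was chr19:56000001-57000000, with 109 control and 94 butyrate peaks, where RNA pol II had 2 and 0. The window with the most H3K27ac peaks was thus not the one with the most RNA pol II peaks.

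On chromosome 18, RNA pol II was densest in chr18:51000001-52000000, with 5 control and 4 butyrate peaks beside 11 and 9 of H3K9ac, 69 and 57 of H3K27ac and 4 and 4 of H3K9me3. H3K9ac was densest in chr18:54000001-55000000, with 12 peaks in each condition, and H3K27ac in chr18:48000001-49000000, with 95 and 85. The window next to the latter, chr18:47000001-48000000, was the densest for H3K9me3, with 19 control and 15 butyrate peaks. That window also held 27 H3K27ac peaks in each condition and 5 H3K9ac peaks in each, so the repressive and the active marks shared this megabase.

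On chromosome 25 the densest window for H3K27ac was chr25:1000001-2000000, with 93 control and 61 butyrate peaks and none of RNA pol II or H3K9me3. H3K9ac was densest in chr25:36000001-37000000, with 10 and 13 peaks. RNA pol II was densest in chr25:27000001-28000000, with 2 and 3 peaks. H3K9me3 was densest in chr25:32000001-33000000, with 2 control and 8 butyrate peaks, where H3K27ac had 2 and 3 and H3K9ac none.

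Stretches with no H3K27ac peak in either list were short on these chromosomes. The longest was chr25:4130246-7731737, of 3.60 Mb, which held 1 H3K9me3 peak in each condition. On chromosome 18 it was chr18:29807260-33112861, of 3.31 Mb, with 1 control RNA pol II peak. On chromosome 19 it was chr19:59251803-60859036, of 1.61 Mb, shorter than the longest stretch of any other autosome. Among the 26 others these ran from 1.75 to 14.0 Mb with a median of 5.05 Mb.

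Peaks were of like width here and elsewhere. The median H3K27ac width was 301 bp against 293 bp in control and 308 bp against 302 bp after butyrate. Peaks over 500 bp made up 18.5% against 17.0% and 19.1% against 17.8%. Median widths of the other antibodies lay between 218 and 249 bp. H3K27ac peaks covered 1.16% of the span in control against 0.489% elsewhere, and 0.996% against 0.445% after butyrate.

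Between conditions, the number of H3K27ac peaks was 15.1% lower after butyrate on these chromosomes (5411 and 4594 peaks) and 10.7% lower on the other autosomes. The difference of the log2 ratios was -0.07, with an interval of -0.13 to -0.01. The interval included 0 among peaks no narrower than the median, with peaks at most 1 kb apart merged (-0.04, -0.11 to 0.04) and against the 7 shorter autosomes (-0.06, -0.14 to 0.02). The log2 ratios of chromosomes 18, 19 and 25 were -0.25, -0.22 and -0.24, which ranked 27, 23 and 26 of 29 from the highest, while the 26 others ran from -0.26 to -0.04. RNA pol II peaks were 44.9% more numerous after butyrate here and 89.7% more numerous elsewhere, with a difference of the log2 ratios of -0.39 (-0.83 to 0.05), which was -0.65 (-1.21 to -0.09) against the 7 shorter autosomes. Chromosome 19 had nearly equal numbers (38 and 40), the lowest log2 ratio of the 29 at 0.07. Chromosome 25 went from 8 to 26, a log2 ratio of 1.70 that ranked 3. H3K9ac moved by 4.09% against 4.47%, and H3K9me3 by 3.03% against 12.6%, with intervals of the difference that included 0. Peak numbers also depend on library depth, which the lists do not hold, and the part of depth was not tested.

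A peak was taken to recur where the list of that antibody from the other condition had a peak overlapping it by at least 1 bp. H3K27ac recurred most. Of the control peaks on these chromosomes 3351 of 5411 (61.9%) recurred, against 59.8% on the other autosomes, a difference of 2.14 percentage points (0.73 to 3.53). Of the butyrate peaks 3373 of 4594 (73.4%) recurred, against 67.4%, a difference of 6.05 points (4.64 to 7.42). For the butyrate list chromosome 18 had the highest share of the 29 autosomes (75.6%), and chromosomes 19 (72.3%) and 25 (72.3%) ranked 3 and 4. For the control list they ranked 2 (62.5%), 6 (61.9%) and 10 (61.0%). H3K27ac peaks after butyrate were thus more often ones already listed in control than on the other autosomes. Overlap is mutual, so nearly equal numbers recurred from either list (3351 and 3373), and the butyrate share also depends on the number of butyrate peaks. That number fell more here (15.1% against 10.7%), so the larger butyrate difference is not a separate result from the peak numbers, whose limits hold here too. The control H3K27ac peaks also covered a larger share of these chromosomes (1.16% against 0.489%). The parts of this coverage and of peak number in the recurrence were not tested.

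Wider peaks recurred more, so the comparison was repeated within classes of width. In the butyrate list, H3K27ac peaks above 200 and up to 300 bp recurred in 61.3% of cases here and 54.7% elsewhere, a difference of 6.61 points (4.25 to 8.94). Those above 300 and up to 500 bp recurred in 81.2% and 75.6%, a difference of 5.56 points (3.34 to 7.65). Over 500 bp the shares were 95.6% and 94.2%, with an interval of -0.31 to 2.74 points. With the other autosomes weighted to the widths found here, the difference was 5.24 points in the butyrate list and 0.92 in the control list. Among peaks no narrower than the median it was 4.0 and 0.33 points, so the control difference was smaller at like widths.

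The other antibodies recurred less. H3K9ac recurred in 199 of 587 control peaks (33.9%, against 32.5%) and in 200 of 611 butyrate peaks (32.7%, against 31%). The intervals of these differences were -2.59 to 5.66 and -2.16 to 5.85 points, and among peaks no narrower than the median the butyrate difference turned to -4.55 points (-9.32 to 0.77). Against the 7 shorter autosomes it was 5.54 points (0.53 to 10.5). RNA pol II recurred in 11 of 78 control peaks (14.1%, against 15.5%) and in 11 of 113 butyrate peaks (9.73%, against 8.15%). H3K9me3 recurred in 40 of 198 control peaks (20.2%, against 23.6%) and in 39 of 204 butyrate peaks (19.1%, against 20.6%). For these 3 antibodies the interval of each difference from the 26 other autosomes included 0.

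**Figure D4:**
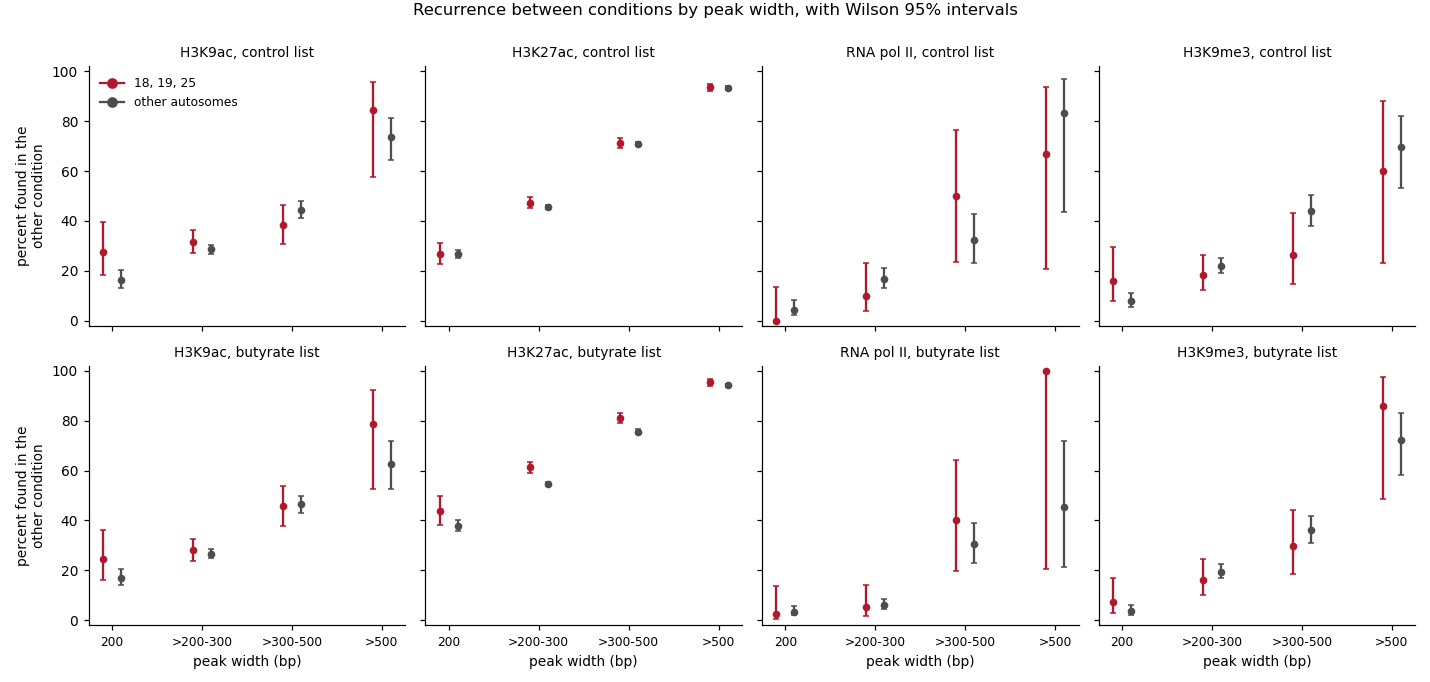
Percent of peaks found in the other condition (vertical axes) by class of peak width in bp (horizontal axes) for chromosomes 18, 19 and 25 (red) and the other autosomes (grey), with Wilson 95% intervals as bars, in the control lists (top) and the butyrate lists (bottom) of the 4 antibodies. In the butyrate H3K27ac panel the red points lie above the grey ones at 61.3% against 54.7% and at 81.2% against 75.6%, and are close to them over 500 bp (95.6% against 94.2%).

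The lists were also joined into regions, where peaks of any list that touch form 1 region. Regions with H3K27ac in both conditions numbered 3178 on these chromosomes and were 2.39 times as dense as elsewhere (2.30 to 2.48). Regions with it in control only numbered 2050, with a ratio of 2.19 (2.09 to 2.29). Those with it after butyrate only numbered 1217, with a ratio of 1.79 (1.69 to 1.90). Of these 3 H3K27ac classes, the one listed only after butyrate had the lowest ratio. The classes rest on the same lists as the peak numbers and recurrence above, so this is not a separate result. The limits given there, library depth included, hold here too. Regions with both acetylations in both conditions numbered 197, 75 on chromosome 18, 84 on chromosome 19 and 38 on chromosome 25, with a ratio of 2.39 (2.05 to 2.78).

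The widest peak of each antibody on each of the 3 chromosomes recurred. The widest peak on these chromosomes was a butyrate H3K27ac peak of 2455 bp at chr18:52914870-52917324, over which 3 control peaks lay. The widest control H3K27ac peak was of 2136 bp at chr25:39338860-39340995, with 2 butyrate peaks over it. The widest H3K9me3 peak was of 1043 bp at chr19:38417203-38418245 after butyrate, with 2 control peaks over it and no peak of another antibody. The widest H3K9ac peak, of 805 bp at chr25:34869323-34870127 after butyrate, met a control peak of 214 bp and an H3K27ac peak in each condition. The widest RNA pol II peak, of 599 bp at chr19:27786425-27787023 in control, met 1 butyrate RNA pol II peak and 2 H3K27ac peaks in each condition.

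Of peaks with no partner in the other condition, the widest of H3K27ac in control was of 906 bp at chr19:19910892-19911797, with the nearest butyrate H3K27ac peak 485 bp away. After butyrate it was of 871 bp at chr25:16674724-16675594, with the nearest control peak 21637 bp away. For H3K9me3 in control it was of 642 bp at chr19:33683691-33684332, with a butyrate peak 89 bp away. For RNA pol II after butyrate it was of 434 bp at chr18:18175238-18175671, more than 6 Mb (6187126 bp) from the nearest control RNA pol II peak, and H3K9me3 had a peak there in each condition. Peaks without overlap thus ranged from one with a neighbour less than 100 bp from its edge to one with none for megabases. These distances are not comparable between antibodies, since the lists differ in length. Control RNA pol II had 32 peaks on chromosome 18, with a mean gap of 1852 kb and a longest gap of 15.1 Mb.

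Overlap between antibodies within a condition was counted at 1 bp or more too. H3K9ac lay largely on H3K27ac, in 524 of 587 control peaks (89.3%, against 85.6% elsewhere) and 523 of 611 butyrate peaks (85.6%, against 82.8%). The differences were 3.72 points (0.73 to 6.27) and 2.75 points (-0.48 to 5.60). Against the 7 shorter autosomes they were 2.36 points (-1.36 to 6.09) and 5.21 points (1.09 to 9.29), and the control difference was 0.86 points (-4.20 to 5.14) among peaks no narrower than the median, so which interval included 0 depended on the comparison. The reverse share, of H3K27ac peaks over H3K9ac, was 9.46% against 9.3% in control and 11.1% against 10.5% after butyrate, and both intervals included 0. H3K27ac covered more than 2 times as large a share of these chromosomes, as given above, and the part of that in the overlap was not tested.

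A larger share of RNA pol II peaks met H3K27ac here than on the 26 other autosomes. In control 37 of 78 did (47.4%, against 33.6%), a difference of 13.8 points (2.44 to 25.4). After butyrate 49 of 113 did (43.4%, against 31%), a difference of 12.4 points (3.17 to 21.9). Against only the 7 shorter autosomes the differences were 8.41 points (-6.81 to 23.1) and 10.6 points (-0.68 to 21.7), with intervals that included 0. The control shares were 46.9% on chromosome 18, 47.4% on chromosome 19 and 4 of 8 peaks on chromosome 25, and the butyrate shares were 46.8%, 45.0% and 34.6%. Overlap with H3K9ac was less common, in 11 of 78 control peaks (14.1%, against 13.3%) and 17 of 113 butyrate peaks (15.0%, against 11.8%), with intervals that included 0.

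RNA pol II met H3K9me3 in 5 of 78 control peaks (6.41%, against 17.3%), a difference of -10.9 points (-15.8 to -2.67). It was -7.00 points (-16.7 to 2.64) against the 7 shorter autosomes and -8.39 points (-16.8 to 6.42) among peaks no narrower than the median, where the intervals included 0. Of these 5 peaks, 4 were on chromosome 18, 1 on chromosome 25 and 0 of 38 on chromosome 19, which allows a share of up to 7.89% there (3 counts of 38). After butyrate 11 of 113 did (9.73%, against 10.9%), with an interval of -5.80 to 5.90 points. H3K9me3 peaks rarely met H3K27ac, in 5 of 198 control peaks (2.53%, against 4.56%) and 6 of 204 butyrate peaks (2.94%, against 2.66%). On chromosome 25 none of the 42 control and 44 butyrate H3K9me3 peaks did, which by the same rule of 3 counts allows shares of up to 7.14% and 6.82%.

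**Figure D5:**
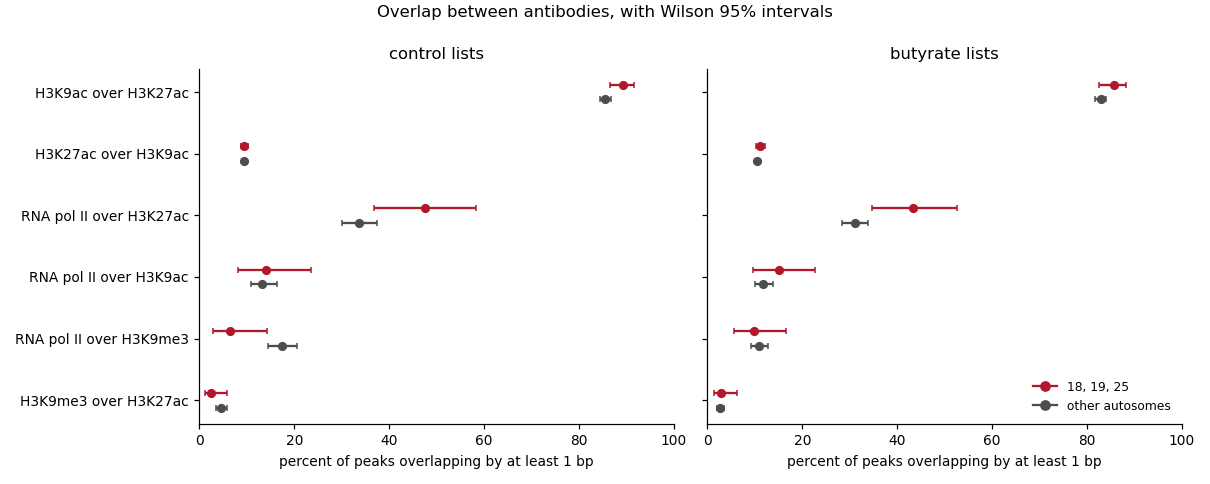
Percent of peaks of the first antibody that overlap a peak of the second by at least 1 bp (horizontal axes) for 6 pairs (rows), on chromosomes 18, 19 and 25 (red) and the other autosomes (grey), with Wilson 95% intervals as bars, in control (left) and after butyrate (right). The red points for RNA pol II over H3K27ac (47.4% and 43.4%) lie to the right of the grey ones (33.6% and 31%), and the red control point for RNA pol II over H3K9me3 (6.41%) lies to the left (17.3%).

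Joined over conditions, RNA pol II had 180 regions on these chromosomes. Of these, 77 (42.8%, 35.8% to 50.1%) held an acetylation peak and no H3K9me3, against 31.6% of 1622 regions on the other autosomes. Another 84 (46.7%) held RNA pol II alone, against 54.8%. Regions with H3K9me3 and no acetylation numbered 9 (5.0%, against 8.69%), and 10 (5.56%, against 4.93%) held both. RNA pol II was listed in both conditions at 11 regions, 5 on chromosome 18, 5 on chromosome 19 and 1 on chromosome 25. The other autosomes had 94, a density ratio of 1.58 (0.85 to 2.95). At 6 of these 11 regions, 4 on chromosome 18 and 2 on chromosome 19, both acetylations were also present in both conditions. On the other autosomes 16 of the 94 had them. The density ratio was 5.07 (1.98 to 12.9), with an interval that takes regions as independent. The regions chr18:51036837-51037543 and chr18:51039305-51039651, in the same 1-Mb window, were 2 of the 6. H3K9me3 alone marked 340 regions, 198 of them on chromosome 18, against 2246 on the other autosomes, a density ratio of 2.04 (1.82 to 2.29). H3K9me3 with acetylation marked 13 against 133, a ratio of 1.32 (0.75 to 2.33).

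Peaks of all 4 antibodies from a single condition met at 6 regions, 5 on chromosome 18 and 1 on chromosome 19. The other autosomes had 25 such regions. The density was 0.0347 per Mb against 0.0107, a ratio of 3.24 (1.33 to 7.90) with regions taken as independent. The region chr18:51036837-51037543 was the only one here with a peak in all 8 lists. The regions chr18:51000727-51001286 and chr18:51039305-51039651 lie in the same window, the densest of chromosome 18 for RNA pol II. At the first of them RNA pol II and H3K9me3 were listed in control only. At the second H3K9me3 was listed after butyrate only. The region chr18:7793071-7793561 included the widest RNA pol II peak of chromosome 18 (466 bp) and lacked H3K9ac after butyrate, and at chr18:55992859-55993687 H3K9me3 was listed after butyrate only. The region on chromosome 19, chr19:43918748-43919061, had a peak of each antibody after butyrate and none in control, within the densest RNA pol II window of that chromosome.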

How the data were processed

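ChIP-seq libraries of rumen tissue for 4 antibodies and 2 conditions, 1 per group, were grouped by their labels. The labels name Trim Galore 0.4.1, BWA, MACS2 and the assembly UMD3.1. According to the study's methods, 75-nt reads were aligned with BWA to UMD3.1.1, uniquely aligned reads were kept, and the authors called peaks in each library with MACS2 at default settings against the input. The positions of peaks, in 3 columns, are all that the deposited lists hold, with no score, fold or read number, so depth is unknown. Lists called from libraries of unequal depth can differ in length for that reason alone.

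Density, gaps, 1-Mb windows and overlaps of at least 1 bp were computed with Python 3.11.15, numpy 2.4.6 and pandas 2.3.3, and the scripts were tested on simulated data. Start and end were both counted as part of a peak, from 1. Intervals are Wilson (shares), Newcombe (differences of shares), log-normal (ratios of counts) and order-statistic (medians), all at 95%. The limit given for a count of 0 is 3 counts of the total. The regions named are, for each antibody and chromosome, the widest peak and the densest window, for each list the widest peak found in 1 condition only, every region with all 4 antibodies, and the longest stretch without H3K27ac, and the text gives a selection of these. Alternatives were an overlap of 50% of the shorter peak, peaks at least as wide as the median, peaks at most 1 kb apart merged, and comparison with 7 shorter autosomes. The chromosomes and measures were chosen with earlier results of these data known. No list of the input library was analysed here.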

Additional observations from a re-analysis of the deposited data

How the results depend on the processing

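Of 136 values recomputed under the alternatives, 121 stayed within the counting interval of the reported value, and no difference whose interval excluded none changed sign. Of the 124 with an interval of their own, 10 came to include no difference and 3 came to exclude it. The 10 were control recurrence of H3K27ac, the overlaps with H3K27ac of control H3K9ac and of RNA pol II, the overlap of control RNA pol II with H3K9me3, and the H3K27ac ratio between conditions, and the 3 were butyrate H3K9ac (recurrence and overlap with H3K27ac) and the RNA pol II ratio, all against the 7 shorter autosomes and with values beside the results. Against only the 7 other autosomes no longer than chromosome 18, the density ratio was 1.94 for butyrate H3K9ac, 1.94 for control and 1.86 for butyrate H3K27ac, and 1.69 for control and 1.46 for butyrate H3K9me3, and the ratio of median gaps was 0.78 for butyrate H3K9ac and 0.36 for butyrate H3K9me3. With only peaks no narrower than the median of their list, the density ratio of H3K27ac was 2.42 in control and 2.28 after butyrate, the ratio of median gaps was 0.50 for butyrate H3K9ac and 0.61 for butyrate H3K27ac, and the difference in recurrence was -4.55 points for butyrate H3K9ac, 0.33 for control and 4.0 for butyrate H3K27ac. With peaks at most 1 kb apart merged, the density ratio of control H3K27ac was 2.20. The cause was not tested. No paired analysis was possible because no antibody had more than 1 library per condition. The RNA pol II lists, with 78 and 113 peaks, limit what can be shown for that antibody.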
